A study of Homo sapiens with 24 samples.

Results

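The heat shock and chaperone families were followed in the transcriptomes of the ovarian cancer line A2780, which is platinum-sensitive, and of its isogenic platinum-resistant derivative A2780cis. Members were chosen by name: protein-coding genes whose symbols begin with HSPA, HSPB, HSP90, DNAJA, DNAJB or DNAJC and a number, the CCT2 to CCT8 series, and HSPH1, HSPD1 and HSPE1. This gave 82 members among 63299 genes, of which 71 had enough counts to be tested; 92 pseudogenes and non-coding RNAs with matching names were left out. The study exposed both lines for 6 h or 12 h to medium with 1 µM 5-FdU-ECyd, a duplex prodrug that links the antimetabolites 2'-deoxy-5-fluorouridine and 3'-C-ethynylcytidine, or to standard growth medium as control. Cells were grown for 48 h after seeding before the medium was changed, and A2780cis alone had been cultured at intervals of a few passages with cisplatin at 1 µM. The 8 groups of line, treatment and time held 3 libraries each, and the 24 libraries held between 11077368 and 21901406 counts. Each line is a single culture lineage, and the study calls the libraries of a group biological triplicates without saying in the labels how the cultures were kept apart, so the p-values measure the spread between these libraries.

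Molecular chaperones hold or refold proteins that are not in their native form. HSP70 proteins (HSPA genes) bind short exposed stretches of a client in a cycle driven by ATP, J-domain proteins (DNAJ genes) deliver the client and start that cycle, and HSP110 proteins release the nucleotide; HSP90 acts later on signalling clients, and the chaperonins, HSP60 with HSP10 in mitochondria and the CCT ring in the cytosol, enclose the chain while it folds. HSPA5, HSP90B1 and several DNAJ proteins do this work in the endoplasmic reticulum (ER), and HSPA9 in mitochondria. Some family genes are expressed at all times (HSPA8, HSP90AB1), while others (HSPA1A, HSPA1B, HSPB1, DNAJB1) are known for induction by the heat shock factor HSF1, which binds repeats of the letters GAA and their inverse TTC.

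Promoter windows from RefSeq, of 250 bases before to 50 after a gene's start on GRCh38.p14, were found for 73 members, in 94 windows. The letters GAANNTTC or TTCNNGAA, 2 adjoining units of a heat shock element (each motif reads the same on both strands, and the motifs can overlap), stood in at least 1 window of 25 members and in 27.7% of the members' windows, against 13.5% of all 35116 windows. CCAAT on either strand stood in 38.3% of the members' windows and 34.6% of all, and TATAAA in 12.8% and 11.5%. The 5 windows below belong to members whose values carry the results: HSPA8, the inducible pair HSPA1A and HSPA1B, which are near-identical copies, and DNAJB1, with heat shock element letters in capitals, and HSPA5, which held none of those letters, with its 5 CCAAT matches in capitals (ATTGG where the match is on the other strand). A match describes the letters and does not show that a factor bound there.
HSPA8 (chr11:123062087-123062386, minus strand): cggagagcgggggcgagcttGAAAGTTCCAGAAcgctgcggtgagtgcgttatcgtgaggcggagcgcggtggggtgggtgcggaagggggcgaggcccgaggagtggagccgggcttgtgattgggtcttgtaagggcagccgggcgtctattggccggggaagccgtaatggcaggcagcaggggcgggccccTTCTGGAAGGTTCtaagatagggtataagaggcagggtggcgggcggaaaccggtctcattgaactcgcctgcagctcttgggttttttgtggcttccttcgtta
HSPA1A (chr6:31815293-31815592, plus strand): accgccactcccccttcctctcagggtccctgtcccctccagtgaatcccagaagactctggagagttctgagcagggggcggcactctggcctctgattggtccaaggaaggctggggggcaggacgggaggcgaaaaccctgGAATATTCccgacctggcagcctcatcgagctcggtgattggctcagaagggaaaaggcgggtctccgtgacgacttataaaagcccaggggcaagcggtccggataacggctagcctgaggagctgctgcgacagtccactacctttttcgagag
HSPA1B (chr6:31827488-31827787, plus strand): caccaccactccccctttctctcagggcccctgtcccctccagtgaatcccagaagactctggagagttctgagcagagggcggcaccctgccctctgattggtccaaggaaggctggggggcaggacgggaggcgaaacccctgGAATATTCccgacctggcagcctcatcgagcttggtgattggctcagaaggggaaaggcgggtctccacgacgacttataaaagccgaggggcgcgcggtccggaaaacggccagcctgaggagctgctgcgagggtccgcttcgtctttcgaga
DNAJB1 (chr19:14518348-14518647, minus strand): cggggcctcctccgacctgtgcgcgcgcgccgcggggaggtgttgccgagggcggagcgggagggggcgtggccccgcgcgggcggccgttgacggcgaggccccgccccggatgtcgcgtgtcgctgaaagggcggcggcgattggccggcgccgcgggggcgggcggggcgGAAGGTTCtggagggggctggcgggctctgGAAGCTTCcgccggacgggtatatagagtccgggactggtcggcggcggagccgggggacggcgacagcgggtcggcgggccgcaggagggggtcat
HSPA5 (chr9:125241294-125241593, minus strand): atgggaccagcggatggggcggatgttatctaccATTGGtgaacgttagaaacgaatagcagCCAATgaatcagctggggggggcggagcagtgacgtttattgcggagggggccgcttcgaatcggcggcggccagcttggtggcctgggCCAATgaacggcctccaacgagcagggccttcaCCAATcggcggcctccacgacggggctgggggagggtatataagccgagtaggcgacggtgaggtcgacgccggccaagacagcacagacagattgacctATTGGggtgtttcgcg

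Levels are given as CPM, the counts of a library scaled to a common total with a trimmed-mean (TMM) correction, and differences as log2 fold changes (log2 FC) with their standard error (SE) from edgeR's quasi-likelihood test, adjusted over 20240 genes; a difference was called at an adjusted p of at most 0.05. After 12 h in A2780, 16 of the 71 tested members were up-regulated and 35 down-regulated, with a median log2 FC of -0.31, where 28.6% and 26.1% of all genes were called in these directions (54.8% in either) and their median was 0.02. After 12 h in A2780cis, 11 were up- and 32 down-regulated (median -0.17), beside 31% and 28.9% of all genes (59.9% in either). HSPA12A and HSPA6 stood among the 16 and HSPA2 among the 11, all with few counts in the controls. At 6 h the counts were 9 up and 10 down in A2780 (median -0.16), where 16% and 13.4% of all genes were called (29.4% in either), and 8 up and 18 down in A2780cis (median -0.14), where the shares were 14.4% and 16.3% (30.7% in either). Single libraries moved some counts: without A2780 treated replicate 1 of 12 h 10 members were up in A2780, without treated replicate 1 of 6 h 4 were down there at 6 h, and without A2780cis control replicate 1 or treated replicate 3 of 6 h 5 were up in A2780cis at 6 h. The splits also moved with the scaling: with library size alone, which shifted the median log2 FC of all genes to 0.24 and 0.15 at 12 h, the members' counts at 12 h were 21 up and 29 down in A2780 and 20 up and 31 down in A2780cis. At 6 h the same scaling gave 10 up and 9 down in A2780 and 9 up and 13 down in A2780cis, and DESeq2 size factors gave 8 up and 16 down in A2780. The 11 members that could not be tested, with at most 9 counts in any library, were HSPB2, HSPB3, HSPB6, HSPB7, HSPB8, HSPB9, DNAJB8, DNAJC5B, DNAJC5G, CCT8L2 and the read-through HSPB2-C11orf52. Counted by compartment at 12 h, members of the cytosol and nucleus were up in 10 and down in 23 of 42 in A2780 and up in 6 and down in 21 in A2780cis. Those of the ER were up in 4 and down in 5 of 13 in A2780 and up in 2 and down in 6 in A2780cis. Mitochondrial members were up in 1 and down in 5 of 9 in A2780 and up in 1 and down in 3 in A2780cis. Of the 7 members assigned to no compartment, 1 was up and 2 down in A2780, and 2 were up and 2 down in A2780cis.

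**Figure D1:**
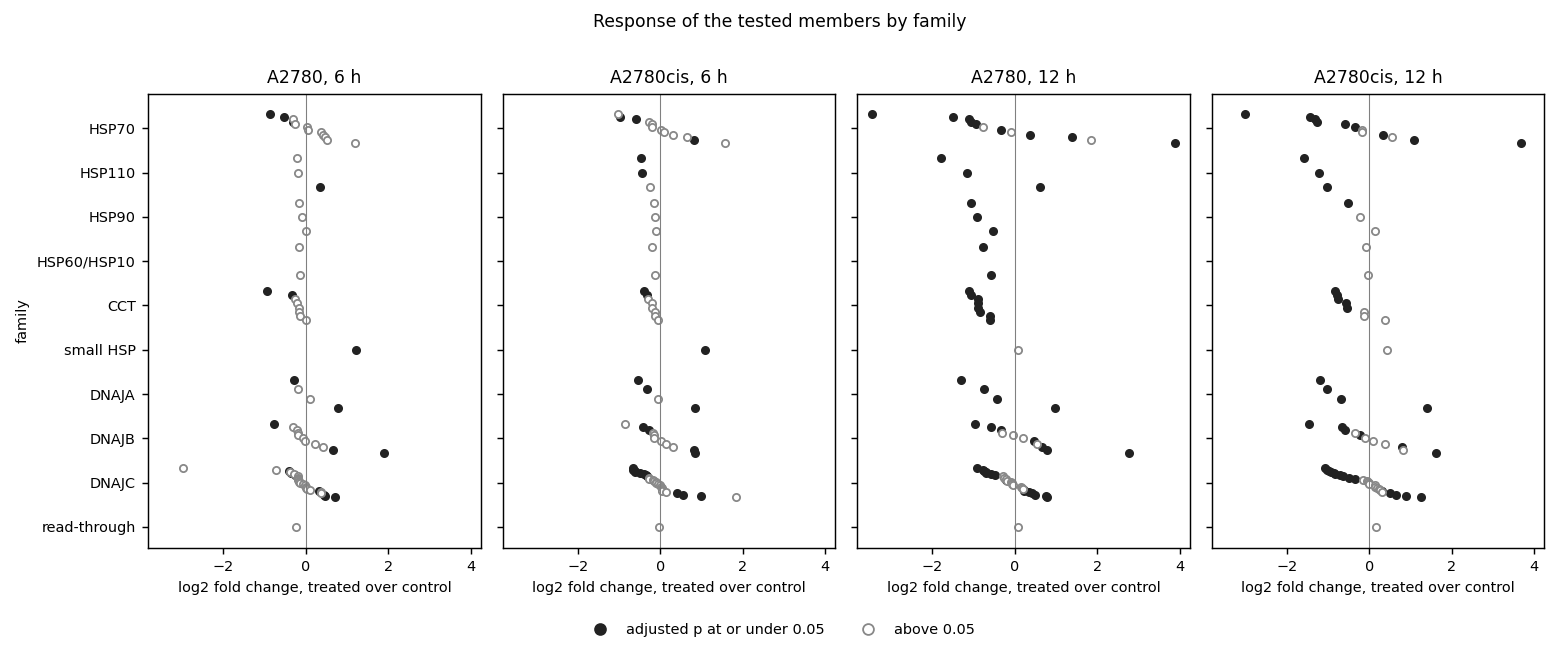
Log2 fold change (treated over control) of the 71 tested members by family, 1 panel per line and time; filled points have an adjusted p of at most 0.05. HSPA8 is the leftmost point in both panels of 12 h (-3.45 and -3.01), and all 8 CCT points in A2780 at 12 h lie below 0.

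HSPA8 encodes the constitutive cytosolic HSP70, HSC70, which also strips clathrin coats; in the GENCODE 44 annotation of GRCh38 it lies on chromosome 11 from 123057489 to 123063230, minus strand, and per kilobase of transcript it had the highest mean level of all members in each of the 4 control groups, 1865 to 3246 CPM per kb. At 6 h its level in A2780 was 6971, 7680 and 6368 CPM in the controls and 3515, 3961 and 4026 CPM in the treated libraries. In A2780cis at 6 h it was 7447, 6384 and 8214 CPM in the controls and 4186, 3584 and 3504 CPM after treatment. At 12 h the A2780 controls were at 4265, 4113 and 4290 CPM and the treated libraries at 426, 360 and 371 CPM. The A2780cis controls at 12 h were at 5550, 4486 and 4301 CPM and the treated libraries at 636, 503 and 641 CPM. Treated and control libraries did not overlap at either time in either line, and every treated library of 12 h lay below every other library of the study. The log2 FC was -0.87 (SE 0.12, adjusted p = 7.45e-06) at 6 h and -3.45 (SE 0.13, adjusted p = 1.43e-16) at 12 h in A2780, a 10.9-fold decrease at 12 h. In A2780cis it was -0.97 (SE 0.12) at 6 h and -3.01 (SE 0.13, adjusted p = 1.40e-15) at 12 h, an 8.05-fold decrease. HSPA8 made up 16.9% ± 1.19 of all members' counts in A2780 controls at 12 h and 3.14% ± 0.0802 in treated cells (SD, n = 3); in A2780cis the shares were 16.5% ± 0.896 and 3.15% ± 0.0608. All members together fell from 2.49% ± 0.115 to 1.43% ± 0.0814 of a library's counts in A2780 and from 2.89% ± 0.172 to 2.01% ± 0.116 in A2780cis at 12 h. Bulk RNA does not tell fewer cells of a kind from less RNA per cell, and a relative level does not give the amount per cell. HSPA8 holds introns that encode small nucleolar RNAs. SNORD14C and SNORD14D were called lower at 12 h in A2780 (log2 FC -1.57 and -2.04) and A2780cis (-1.92 and -1.37). SNORD14E was not called, with a log2 FC of -0.35 (adjusted p = 0.293) and 0.10 (adjusted p = 0.764). Levels of these small RNAs are not given here, so the folds carry no weight for HSPA8. Whether these RNAs change together with HSPA8 was not tested.

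**Figure D2:**
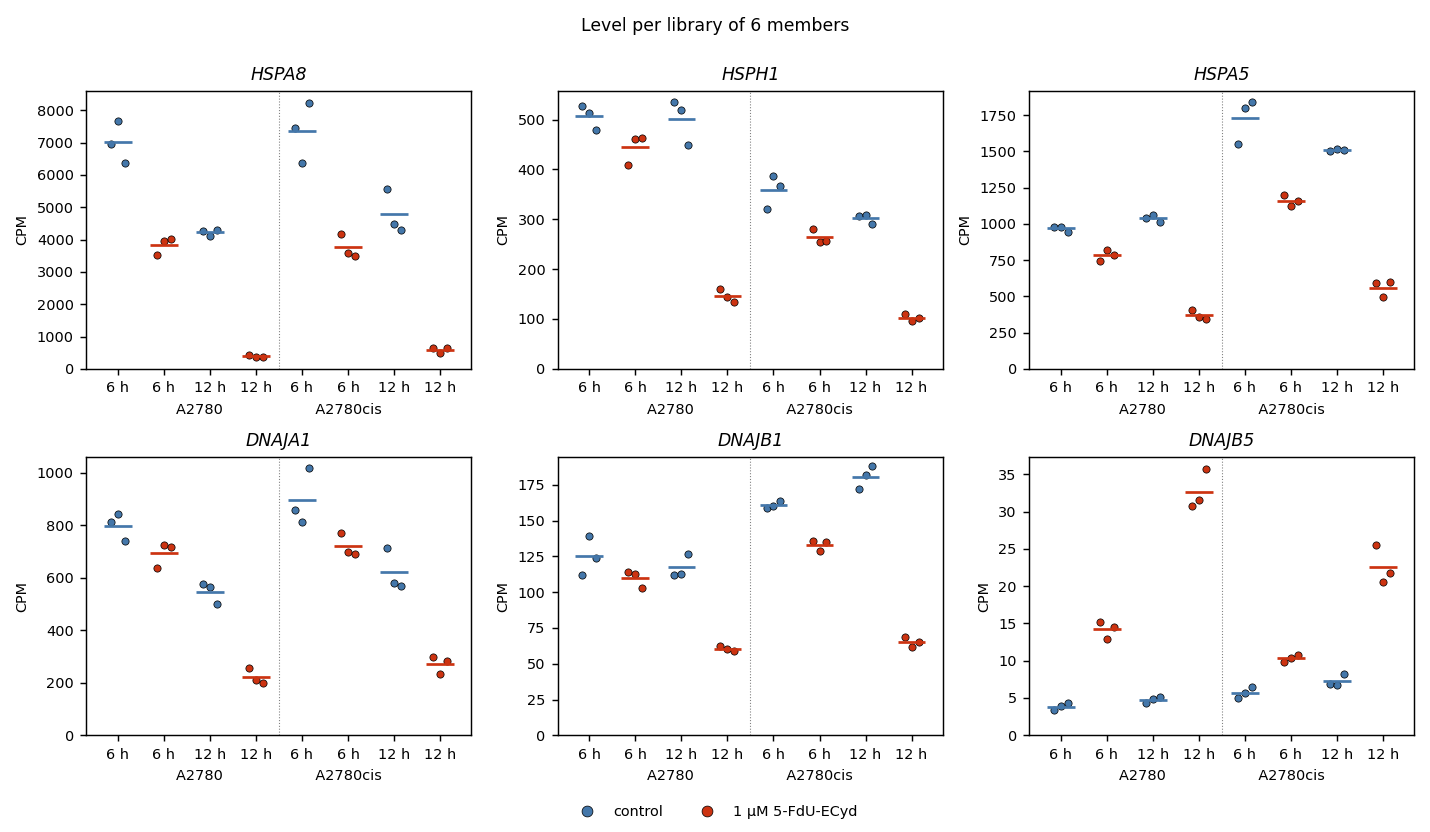
CPM in each library (points) and group mean (lines) of 6 members by line, time and treatment, on linear axes from 0. HSPA8, HSPH1, HSPA5, DNAJA1 and DNAJB1 have their lowest values in the treated libraries of 12 h in both lines, and DNAJB5 its highest.

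Of the other HSP70 genes, HSPA5 (BiP), the HSP70 of the ER lumen, was at 1041, 1061 and 1012 CPM in A2780 controls and 406, 360 and 345 CPM in treated cells at 12 h. Levels in A2780cis were 1506, 1519 and 1507 CPM and 592, 493 and 596 CPM. The groups did not overlap, and its log2 FC was -1.49 (SE 0.09, adjusted p = 9.30e-13) in A2780 and -1.43 (SE 0.09, adjusted p = 1.55e-12) in A2780cis. It was also lower at 6 h, by -0.31 (SE 0.09) in A2780 and -0.58 (SE 0.09) in A2780cis; without A2780 treated replicate 1 the former was -0.27 and not called (adjusted p = 0.0682). HSPA9 (mortalin), the mitochondrial HSP70, fell from 1208, 1200 and 1115 CPM to 665, 601 and 575 CPM in A2780 (log2 FC -0.94, SE 0.10) and from 1375, 1217 and 1168 CPM to 1076, 866 and 1037 CPM in A2780cis (-0.34, SE 0.10). HSPA14, a ribosome-associated HSP70, fell in both lines (-0.34 and -0.59). HSPA13, a microsomal HSP70 homologue, was up-regulated at 12 h in A2780 (0.38, SE 0.13) and in A2780cis (0.34, SE 0.13), although the A2780cis groups overlapped. The HSPA13 call of A2780 was lost without control replicate 3 (0.30) or treated replicate 1 (0.28), and that of A2780cis without any of control replicates 2 (0.33) and 3 (0.24) or treated replicates 1 (0.21) and 2 (0.30). At low levels, HSPA6 in A2780 was at 0.66, 0.116 and 0.308 CPM in controls and 1.33, 0.977 and 0.583 CPM in treated cells, with overlapping groups. HSPA2, the testis-enriched HSP70, was at 0.0963, 0.0561 and 0.216 CPM in A2780cis controls and 1.33, 1.89 and 1.75 CPM in treated cells. The HSPA2 controls held at most 4 counts in a library and the treated libraries at most 33, so no fold of 12 h is given for either gene. Both calls of 12 h still enter the counts of up-regulated members, HSPA6 in A2780 and HSPA2 in A2780cis.

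The inducible pair HSPA1A and HSPA1B, neighbours on chromosome 6, were lower in treated cells than in controls at 12 h. HSPA1A was at 27.5, 28.8 and 29 CPM in A2780 controls and 9.18, 13.8 and 16.1 CPM in treated cells. In A2780cis it was at 68.3, 98.5 and 120 CPM in controls and 31.2, 53.6 and 33.4 CPM after treatment. The control libraries were above the treated ones in both lines, with a log2 FC of -1.12 (SE 0.27) and -1.27 (SE 0.25), and HSPA1B changed by -1.05 (SE 0.17) and -1.31 (SE 0.16). Reads that fit both copies were split in fractions, so the division between the copies is uncertain; with their counts summed the log2 FC was -1.07 (SE 0.19) in A2780 and -1.30 (SE 0.19) in A2780cis. At 6 h in A2780cis HSPA1A was at 24, 19.5 and 26.7 CPM in controls and 29.7, 39.9 and 53.1 CPM after treatment, a log2 FC of 0.81 (SE 0.27, adjusted p = 0.0227). That call was lost in the sum of both copies (0.46, SE 0.19, adjusted p = 0.0665), and for HSPA1A it was lost without control replicate 1 (0.83), control replicate 2 (0.69) or treated replicate 3 (0.57). In A2780 at 6 h HSPA1A had a log2 FC of 0.41 (adjusted p = 0.284) with overlapping groups.

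The HSP110 genes, nucleotide exchange factors of HSP70, fell in both lines at 12 h apart from HSPA4L in A2780. HSPH1 was at 536, 520 and 449 CPM in A2780 controls and 160, 144 and 134 CPM in treated cells. HSPH1 in A2780cis was at 307, 308 and 290 CPM and 109, 95.3 and 101 CPM. Its log2 FC of -1.78 (SE 0.10, adjusted p = 7.14e-14) and -1.57 (SE 0.10, adjusted p = 6.11e-13) was, among members called in each line whose mean log2 CPM was 2 or more, second in size to that of HSPA8 among decreases. HSPA4 fell by 1.15 (SE 0.10) and 1.21 (SE 0.10) on the log2 scale. HSPA4L was higher in treated A2780 (94.7, 79.1 and 77.2 CPM against 59.8, 55.4 and 49.2 CPM) and lower in treated A2780cis (102, 89 and 73.9 CPM against 201, 175 and 161 CPM). The groups did not overlap in either line, the log2 FC was 0.61 (SE 0.12) and -1.02 (SE 0.12), and the difference between lines was -1.63 (SE 0.16, adjusted p = 1.45e-07).

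HSP90 and the chaperonins fell at 12 h in A2780. Of the HSP90 genes, HSP90AB1, the constitutive cytosolic form, went from 3292, 3384 and 3034 CPM to 1729, 1511 and 1415 CPM in A2780 and from 4197, 3902 and 3828 CPM to 2912, 2395 and 3006 CPM in A2780cis. Its log2 FC was -1.06 (SE 0.10) and -0.52 (SE 0.10). HSP90AA1, the inducible cytosolic form, had a log2 FC of -0.53 (SE 0.13, adjusted p = 0.00123) in A2780, where 1 control library (1979 CPM) lay within the treated range of 1633 to 2027 CPM, and -0.23 (adjusted p = 0.129) in A2780cis. HSP90B1 (GRP94), the ER form, was at 1310, 1298 and 1011 CPM in A2780 controls and 712, 615 and 595 CPM in treated cells, a log2 FC of -0.91 (SE 0.11). In A2780cis its groups overlapped (1991, 1801 and 1745 CPM against 2134, 1735 and 2212 CPM), with a log2 FC of 0.14 (95% interval -0.08 to 0.35, adjusted p = 0.297). HSPD1 (HSP60) and HSPE1 (HSP10), the chaperonin pair of the mitochondrial matrix, fell in A2780 by 0.76 (SE 0.11) and 0.58 (SE 0.13) on the log2 scale. In A2780cis their log2 FC was -0.03 (95% interval -0.25 to 0.19) and -0.07 (-0.31 to 0.18), with overlapping groups. None of these 5 genes was called at 6 h in either line by edgeR.

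All 8 tested subunit genes of the cytosolic chaperonin CCT were down-regulated in A2780 at 12 h, by a log2 FC from -1.12 (CCT3, SE 0.11) to -0.59 (CCT8, SE 0.13), without overlap between groups. CCT3 was at 1266, 1232 and 1321 CPM in controls and 618, 556 and 584 CPM in treated cells. In A2780cis 5 of the 8 fell, led by CCT4 (537, 490 and 468 CPM to 296, 240 and 306 CPM; log2 FC -0.83, SE 0.10), while CCT7 (-0.12), CCT8 (-0.12, adjusted p = 0.418) and CCT6B (0.37), a testis-enriched form, were not called. CCT6B, with at most 18 counts in any library, was called in A2780 at 12 h (-1.07). The call was lost without control replicate 3 (-0.95) or treated replicate 2 (-0.81). At 6 h 2 of 8 were called in each line, both lower. TCP1, the subunit gene outside the name rule, fell at 12 h by 1.06 and 0.70 on the log2 scale in A2780 and A2780cis.

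HSPB1 (HSP27), a small heat shock protein that holds unfolded clients without ATP, was the one small HSP gene with enough counts. At 6 h it was at 5.81, 12.8 and 11 CPM in A2780 controls and 32.1, 22.2 and 13.9 CPM in treated cells. In A2780cis it was at 15.5, 13 and 21.5 CPM and 25.5, 35.6 and 45.1 CPM. Every treated library was above the controls of its line, with a log2 FC of 1.22 (SE 0.29, adjusted p = 0.0027) and 1.09 (SE 0.27, adjusted p = 0.00345). At 12 h the log2 FC was 0.08 (95% interval -0.43 to 0.58) in A2780 and 0.42 (-0.06 to 0.90) in A2780cis, and neither was called.

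J-domain genes moved in both directions. DNAJA1, the main cytosolic partner of HSPA8 in its class, fell at 12 h from 576, 564 and 501 CPM to 255, 209 and 199 CPM in A2780 (log2 FC -1.31, SE 0.12) and from 712, 579 and 570 CPM to 297, 235 and 283 CPM in A2780cis (-1.19, SE 0.12). DNAJA2 fell by 0.74 (SE 0.09) and 1.02 (SE 0.09) on the log2 scale, and the mitochondrial DNAJA3 by 0.42 and 0.69. DNAJB1 (HSP40), a partner of inducible HSP70, fell from 112, 113 and 127 CPM to 62.6, 60.6 and 58.6 CPM in A2780 (-0.96, SE 0.08) and from 172, 182 and 188 CPM to 68.7, 61.7 and 65.3 CPM in A2780cis (-1.47, SE 0.08). DNAJC2 (MPP11), which works at the ribosome, fell by 0.92 (SE 0.12) and 0.98 (SE 0.12).

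DNAJB5 had the largest increase at 12 h in A2780cis among called members whose mean log2 CPM was 2 or more, and in A2780 it came after HSPA12A alone, whose A2780 controls had at most 3 counts in each library. It was at 4.29, 4.92 and 5.09 CPM in A2780 controls and 30.8, 31.5 and 35.7 CPM in treated cells at 12 h, a 6.83-fold increase (log2 FC 2.77, SE 0.13, adjusted p = 2.91e-15). DNAJB5 in A2780cis was at 6.89, 6.74 and 8.26 CPM and 25.5, 20.6 and 21.8 CPM, a 3.10-fold increase (1.63, SE 0.12, adjusted p = 1.72e-11). It was already up at 6 h, by 1.89 (SE 0.14) in A2780 and 0.85 (SE 0.14) in A2780cis. DNAJB4 rose at 12 h by 0.77 (SE 0.14) and 0.80 (SE 0.13); at 6 h it was at 17.8, 22.8 and 24.7 CPM against 23.3, 25.3 and 19.8 CPM in A2780 and at 28.6, 28.2 and 24 CPM against 15.4, 14.1 and 15.9 CPM in A2780cis, called in the latter (0.82, SE 0.14). DNAJC18, an ER membrane J-domain gene, rose at 12 h from 8.78, 10.1 and 10.5 CPM to 19.3, 15.9 and 15.2 CPM in A2780 (0.77, SE 0.12) and from 3.37, 3.42 and 2.59 CPM to 5.59, 5.22 and 6.61 CPM in A2780cis (0.89, SE 0.15). DNAJA4 stayed under 3 CPM and rose at 12 h by 0.98 (SE 0.21) and 1.39 (SE 0.22). DNAJC22 rose in A2780cis at 12 h from 4.48, 5.05 and 4.64 CPM to 9.84, 10.6 and 13.2 CPM (1.25, SE 0.14); its call in A2780 (0.43, SE 0.15) was lost without either of control replicates 1 (0.38) and 2 (0.41) or treated replicates 2 (0.38) and 3 (0.32).

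The 4 treatment comparisons share no control sample with each other. DNAJA4, DNAJB5 and DNAJC18 were called higher in all 4, and DNAJA2, DNAJC11, DNAJC13, HSPA5 and HSPA8 lower in all 4. The share of all genes with the same call in all 4 was not counted, so these calls do not set the members apart. Several of the calls at 6 h rested on single libraries. DNAJA4 lost its call in A2780 without control replicate 3 (0.67) and in A2780cis without control replicate 1 (0.83) or 3 (0.74) or treated replicate 2 (0.77) or 3 (0.88). DNAJC18 lost it in A2780 without control replicate 1 (0.41), and DNAJC13 in A2780cis without control replicate 2 (-0.27) or treated replicate 2 (-0.27) or 3 (-0.29). Among the ER-resident J-domain genes, DNAJB9 (ERdj4), a target of the unfolded protein response, was lower at 6 h in A2780 (9.21, 12.3 and 11.9 CPM against 20.3, 19.6 and 16.8 CPM; log2 FC -0.77, SE 0.16) and higher at 12 h (19.5, 14.7 and 14.3 CPM against 12.4, 11.6 and 10.9 CPM; 0.47, SE 0.15), a call lost without control replicate 3 (0.42) or treated replicate 1 (0.30). DNAJC3 (p58IPK), an ER co-chaperone, fell in A2780cis by 0.67 (SE 0.11) at 6 h and 1.03 (SE 0.11) at 12 h, and DNAJC1, an ER membrane protein, by 0.65 (SE 0.09) and 1.08 (SE 0.09). At 6 h DNAJB9 and DNAJC3 were called lower in both lines, DNAJC3 in A2780 with a log2 FC of -0.36 (SE 0.11). The edgeR test of the difference between lines at 6 h called neither DNAJB9 (0.35, adjusted p = 0.48) nor DNAJC3 (-0.31, adjusted p = 0.333). DNAJC4 rose at 6 h in A2780 (0.72, SE 0.22) and A2780cis (1.00, SE 0.22); the call in A2780 was lost without control replicate 2 (0.61) or treated replicate 1 (0.60).

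**Figure D3:**
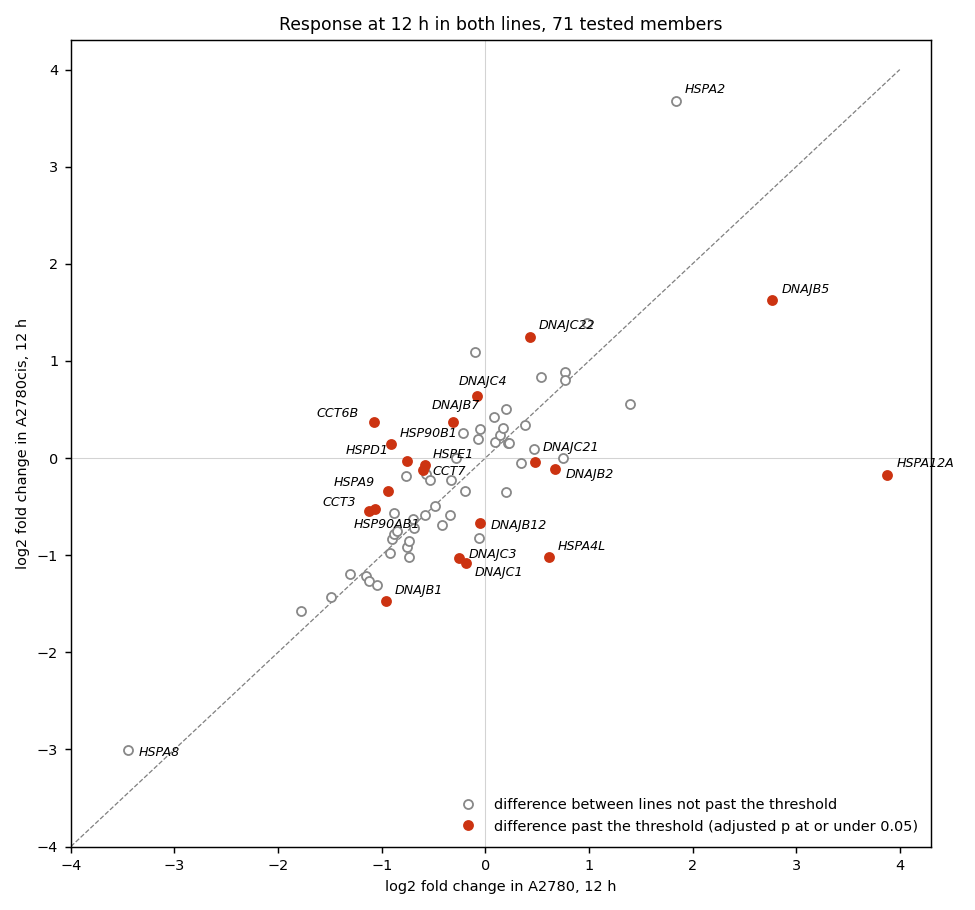
Log2 fold change at 12 h in A2780cis (y) against A2780 (x), 1 point for each of the 71 tested members; filled points have a difference between lines with an adjusted p of at most 0.05, and the dashed line marks equal responses. HSPA8 lies near the dashed line at -3.45 and -3.01, HSPA4L lies in the quadrant of opposite signs, and HSPA12A lies far to the right from libraries of A2780 with few counts.

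The response of the lines was compared by an interaction term, the log2 FC in A2780cis minus that in A2780. At 12 h 20 of 71 members differed, 11 with a higher and 9 with a lower value in A2780cis, where 9.7% and 14% of all genes were called (23.7% in either direction). The higher ones included 3 of the 9 tested mitochondrial members (HSPD1, HSPA9 and HSPE1) and 2 HSP90 genes: HSP90B1 (1.05, SE 0.16, adjusted p = 3.31e-05), HSPD1 (0.73, SE 0.16), HSPA9 (0.60, SE 0.14), HSP90AB1 (0.54, SE 0.14) and HSPE1 (0.51, SE 0.18), with CCT3 (0.57, SE 0.15), CCT7 (0.48, SE 0.14) and CCT6B (1.44, SE 0.52), and DNAJC22 (0.82), DNAJC4 (0.72) and DNAJB7 (0.68). HSP90B1, HSPD1, HSPA9, HSP90AB1, HSPE1, CCT3, CCT7 and CCT6B were all called lower in A2780. In A2780cis HSPA9, HSP90AB1 and CCT3 fell by less and the others were not called. CCT6B had at most 18 counts in any library. The lower ones were HSPA4L, DNAJB5 (-1.14, SE 0.17), DNAJC1 (-0.90, SE 0.13), DNAJC3 (-0.78, SE 0.15), DNAJB2 (-0.78), DNAJB12 (-0.62), DNAJC21 (-0.52), DNAJB1 (-0.51, SE 0.12) and HSPA12A. HSPA12A was at 0.21, 0.391 and 0.534 CPM in treated A2780 at 12 h and had at most 3 counts in each control library. The treated mean was 2.16-fold the mean floor of 0.175 CPM, but the lowest treated library (0.21 CPM) lay close to that floor. The fitted interaction of HSPA12A, -4.05 (SE 0.84), depends on that floor. HSPA8 had an interaction of 0.44 (95% interval 0.11 to 0.78, adjusted p = 0.0624), HSPH1 of 0.21 (-0.05 to 0.47), HSPA5 of 0.06 (-0.19 to 0.31) and DNAJA1 of 0.12 (-0.20 to 0.44), none of them called. At 6 h 3 members differed, DNAJB4 (0.89, SE 0.20), DNAJB5 (-1.04, SE 0.20) and DNAJC5 (-0.73, SE 0.20), where 0.692% of all genes were called higher and 2.38% lower (3.07% in either direction); the interaction of HSPA8 was -0.10 (95% interval -0.43 to 0.24).

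The difference between the 12 h and the 6 h response was negative for most called members. In A2780 it was lower for 27 and higher for 4 of 71, where 13% and 10.7% of all genes were called (23.7% in either direction), and in A2780cis lower for 22 and higher for 2, where the shares were 13.6% and 10.3% (24% in either direction). HSPA8 had the largest negative value in A2780 (-2.58, SE 0.17, adjusted p = 1.07e-09) and -2.04 (SE 0.17, adjusted p = 5.81e-08) in A2780cis. HSPH1 followed in A2780 (-1.59, SE 0.13), with -1.13 (SE 0.13) in A2780cis. HSPA1A had -1.53 (SE 0.39) and -2.08 (SE 0.37), and the sum of HSPA1A and HSPA1B had -1.23 (SE 0.27) and -1.76 (SE 0.26). DNAJB5 was higher in A2780 (0.88, SE 0.19) and in A2780cis (0.78, SE 0.18), DNAJB9 (1.23, SE 0.22) and HSPA13 (0.89, SE 0.18) in A2780, and DNAJC22 (0.84, SE 0.20) in A2780cis. The A2780 controls of DNAJB9 and HSPA13 were themselves lower at 12 h than at 6 h (-0.70 and -0.61), a change that these values take in.

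Untreated A2780cis and A2780 differed in 33 members at 6 h (24 higher and 9 lower in A2780cis, where 25% and 22.9% of all genes were called, 47.9% in either direction) and in 35 at 12 h (24 higher and 11 lower, with 25.4% and 27.5% of all genes, 52.9% in either direction). HSPA8 did not pass the test at either time (0.07, 95% interval -0.17 to 0.31, and 0.18, -0.06 to 0.42). DNAJC6 (auxilin), the J-domain partner of HSPA8 in clathrin uncoating, was at 23.4, 29.7 and 22.5 CPM in A2780cis controls at 6 h and at 20.3, 24.1 and 21.3 CPM at 12 h, while no control library of A2780 had more than 3 counts. It was thus at least 97.9-fold higher at 6 h and at least 125-fold higher at 12 h, with 3 counts in each A2780 library as the floor. HSPA12A, a distant HSP70 relative, was at least 46.4-fold higher at 6 h and 58.5-fold at 12 h by the same floor. DNAJC12 was at 2.77, 3.13 and 2.36 CPM in A2780 and 50.7, 43.4 and 43.8 CPM in A2780cis at 12 h (log2 difference 4.06, SE 0.20). HSPA4L was higher in A2780cis at both times, by 1.79 (SE 0.12) and 1.71 (SE 0.12). The ER genes HSPA5 (0.84, SE 0.09, and 0.54, SE 0.09) and HSP90B1 (0.85, SE 0.11, and 0.61, SE 0.11) were higher in A2780cis at 6 h and 12 h. In the other direction DNAJC15, a mitochondrial J-domain gene, was at 1.52, 1.97 and 1.39 CPM in A2780 at 12 h and at 0 in all 3 A2780cis controls, at least 10.3-fold lower there; DNAJC18 (-1.65, SE 0.14, at 12 h), HSPH1 (-0.73, SE 0.09) and DNAJC21 (-0.73, SE 0.10) were lower as well. DNAJC6 and DNAJC12 fell with treatment in A2780cis at 12 h, by 0.82 (SE 0.15) and 0.72 (SE 0.16) on the log2 scale.

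**Figure D4:**
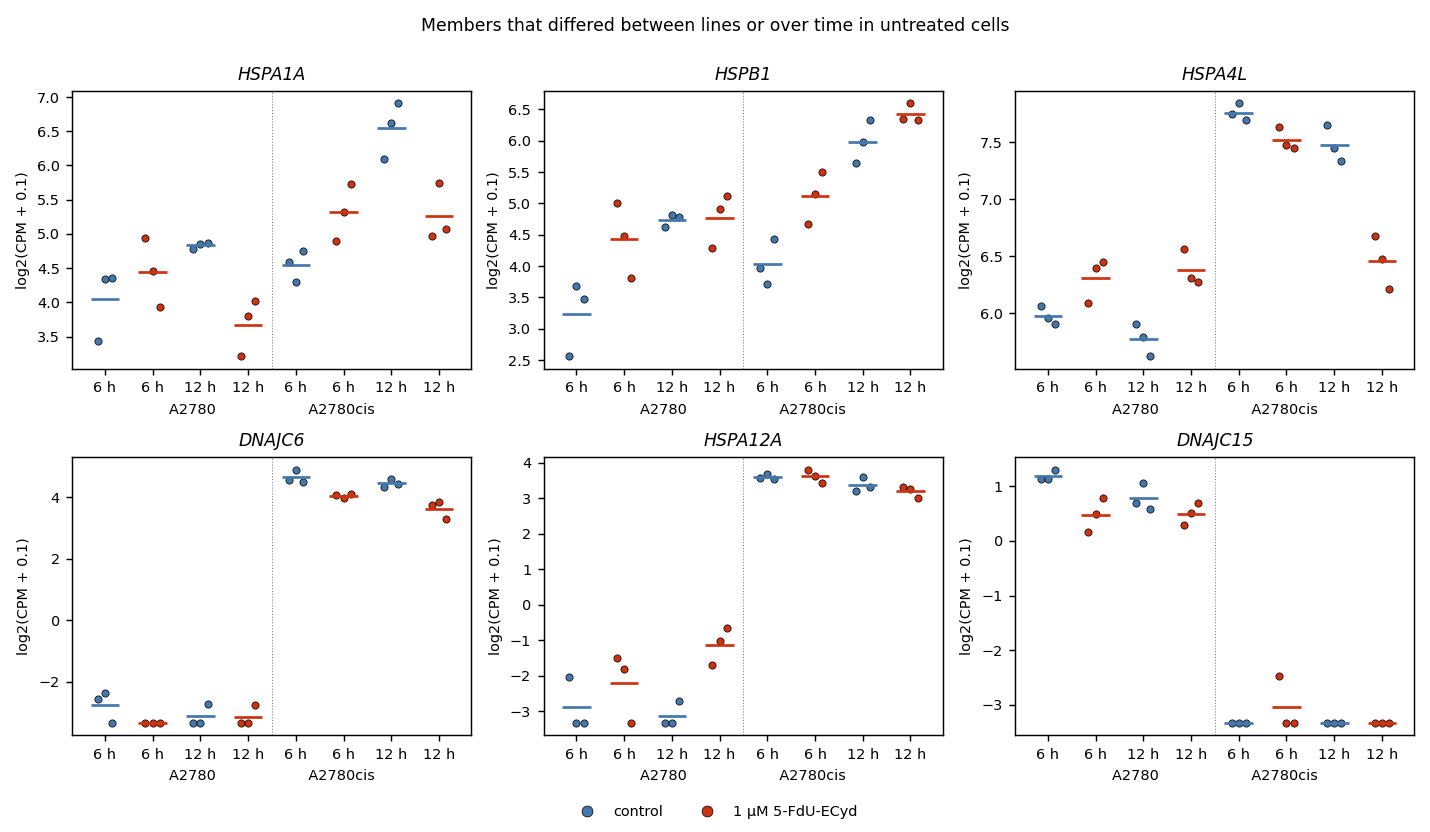
Level of 6 members in each library as log2(CPM + 0.1), so that a library without counts lies at the bottom of its panel; lines are group means. Controls of 12 h lie above controls of 6 h for HSPA1A and HSPB1 in both lines, and DNAJC6 and HSPA12A lie high in A2780cis while DNAJC15 lies high in A2780.

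Controls also differed between 6 h and 12 h in fresh medium, so that treated cells of each time were compared with controls of that time. Time cannot be told apart here from any handling that differed between the harvests. In A2780 6 members were higher and 19 lower at 12 h, beside 16.6% and 10.3% of all genes (26.9% in either direction), and in A2780cis 9 were higher and 30 lower, beside 18% and 21.9% (39.9% in either direction). Fewer members were called in A2780 without control replicate 1 of 6 h or control replicate 3 of 12 h (11 in all in each case), and 22 were called in A2780cis without control replicate 3 of 12 h. HSPA8 was lower at 12 h by -0.73 (SE 0.12) in A2780 and -0.62 (SE 0.12) in A2780cis. HSPB1 was higher by 1.46 (SE 0.29, adjusted p = 0.0015) in A2780 and 1.94 (SE 0.27, adjusted p = 3.19e-05) in A2780cis. HSPA1A was higher in A2780cis by 2.02 (SE 0.27), from 24, 19.5 and 26.7 CPM to 68.3, 98.5 and 120 CPM, and by 0.75 (SE 0.27, adjusted p = 0.0433) in A2780. With HSPA1A and HSPA1B summed these were 1.5 (SE 0.19) and 0.46 (SE 0.19, adjusted p = 0.076), the latter not called.

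Genes that work with these families but lie outside the name rule were listed too. Of 25 co-chaperones and exchange factors, 3 rose and 18 fell in A2780 at 12 h and 1 rose and 15 fell in A2780cis, which is 84.0% and 64.0% called beside 54.8% and 59.9% of all genes. STUB1 (CHIP), the ubiquitin ligase that binds HSP70 and HSP90, had a log2 FC of -1.47 and -1.70, STIP1 (HOP), which joins HSP70 to HSP90, -1.39 and -1.08, AHSA1, an activator of HSP90, -1.36 and -0.64, and BAG3 -0.69 and -1.49. Of 6 tested heat shock factors and regulators, 2 rose and 1 fell in A2780 (50% called) and 3 rose and 1 fell in A2780cis (66.7%): HSF1 was not called (-0.15, adjusted p = 0.529, and -0.17, adjusted p = 0.442), while HSF2 fell by 0.37 and 1.56 on the log2 scale. The highest log2 FC of this list was that of HSF4 (0.93 and 1.12), and of the co-chaperone list that of CDC37L1 (0.75 and 0.54). Of 16 further ER folding factors, 2 rose and 9 fell in A2780 (68.8%) and 2 rose and 6 fell in A2780cis (50%), with SDF2L1 at -1.35 and -1.24 and calreticulin (CALR) at -0.41 (adjusted p = 0.000373) and -0.08 (adjusted p = 0.448). Controls of SDF2L1 and STUB1 moved with time in A2780cis. Mean SDF2L1 there was 26.9 and 59.3 CPM in controls of 6 h and 12 h, and 28.4 and 25.1 CPM after treatment. Mean STUB1 there was 26.4 and 59.6 CPM in controls, and 14.5 and 18.4 CPM after treatment. Of 10 mitochondrial folding factors, which include GRPEL1 and GRPEL2 of the co-chaperone list, 1 rose and 6 fell in A2780 (70.0%). In A2780cis 3 fell (30.0%). TRAP1, the mitochondrial HSP90, was at -0.82 in A2780 and -0.24 in A2780cis. Among 12 chaperonin partners, which include TCP1, 3 fell in A2780 (25.0%), and 4 rose and 1 fell in A2780cis (41.7%).

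Markers of epithelium in general and of ovarian tissue were checked in all groups. The ovarian markers PAX8, WT1 and MUC16 and the epithelial CDH1 and KRT19 had group means of at most 0.146 CPM, and ESR1 of at most 0.263 CPM. Epithelial KRT18 had group means of 1.11 to 2.89 CPM in A2780 and 23.4 to 26.5 CPM in A2780cis. KRT8 had 0.751 to 1.53 CPM and 4.39 to 5.97 CPM, and EPCAM 0.666 to 1.35 CPM and 0.188 to 0.83 CPM. Leukocyte and endothelial markers (PTPRC, CD3E, CD14, PECAM1, CDH5, VWF) had group means of at most 0.0946 CPM. COL1A2, a fibroblast gene, was at 35.9 to 57.2 CPM in A2780 and at most 0.18 CPM in A2780cis. The fibroblast genes COL1A1 (5.07 to 14.7 CPM), DCN (6.05 to 10.9 CPM) and LUM (1.68 to 3.33 CPM) were also present in A2780. In A2780cis they were at most 2.69, 1.07 and 0.764 CPM. The part of these genes in the differences between lines was not tested.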

How the data were processed

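Total RNA was sequenced after ribosomal depletion with a stranded kit, in 24 libraries. Per the study's methods, reads were trimmed by the authors and mapped with STAR 2.5.2b to GRCh38.p7 with up to 100 alignments allowed a read, and counted exons with featureCounts, giving a multimapping read to its genes in fractions. The deposited values are therefore estimated counts (expected counts) that need not be whole, which makes the division between near-identical copies uncertain; the strand setting is not given in the sources used here. The counts were rounded and fitted with edgeR 4.0.16 (R 4.3.3): TMM scaling, a filter on low counts (minimum count 10, minimum total 15), 1 model of 8 groups over all 24 libraries with 16 residual degrees of freedom, the quasi-likelihood test and Benjamini-Hochberg adjustment over 20240 genes. The SE is the log2 FC divided by the root of F. A library with at most 3 counts counts as at the floor. Of 63299 genes, 56948 matched GENCODE 44, which gave gene types. The members and lists were chosen with earlier results of these data known. Named members are HSPA8 in every comparison, a fixed set of family leads under treatment, the 5 largest called increases and decreases whose mean log2 CPM was 2 or more, the highest and lowest of each family at 12 h, and all untested members; HSPA2, HSPA6 and HSPA13 and the library-dependent calls were named after their values were seen. Same-numbered replicates were checked for pairing: correlations of their deviations ran from -0.528 to 0.509, and in 0 comparisons did all pairs exceed 0.1, so no block was used. Alternatives were other scalings, no filter, counts left unrounded, DESeq2 1.42.0, a replicate block, the compared samples alone and leaving out each library; the sum of HSPA1A and HSPA1B was added after the data were seen. The test was checked on simulated data.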

Additional observations from a re-analysis of the deposited data

Results flagged for a closer look

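Differences between responses, each tested by an interaction term in edgeR, are listed here for the named members. At 12 h the log2 FC in A2780cis minus that in A2780 was 1.05 for HSP90B1, 0.82 for DNAJC22, 0.73 for HSPD1, 0.72 for DNAJC4 and 0.68 for DNAJB7. It was -1.63 for HSPA4L, -1.14 for DNAJB5, -0.90 for DNAJC1 and -0.78 for DNAJC3, and -4.05 for HSPA12A, whose A2780 controls had at most 3 counts in each library. At 6 h it was 0.89 for DNAJB4, -1.04 for DNAJB5 and -0.73 for DNAJC5.

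The response at 12 h minus that at 6 h in A2780 was -2.58 for HSPA8, -1.59 for HSPH1, -1.53 for HSPA1A, -1.18 for HSPA5 and -1.14 for HSPB1. It was 1.23 for DNAJB9, 0.89 for HSPA13, 0.88 for DNAJB5 and 0.84 for DNAJB4. In A2780cis it was -2.08 for HSPA1A, -2.04 for HSPA8, -1.63 for HSPA1B, -1.20 for DNAJB1 and -1.13 for HSPH1, and 0.84 for DNAJC22 and 0.78 for DNAJB5. Control levels also differed between the times, and these differences subtract that change. Controls of 12 h were higher than those of 6 h for HSPA1A and HSPB1. In A2780 they were called lower for HSPA8 (log2 FC -0.73), DNAJB9 (-0.70), DNAJB4 (-0.68) and HSPA13 (-0.61). DNAJB4 in A2780 was at 7.85 and 4.9 CPM per kb in controls of 6 h and 12 h. After treatment it was at 7.5 and 8.37 CPM per kb. In A2780cis the mean level of HSPA1A was 9.75 and 39.8 CPM per kb in controls of 6 h and 12 h. After treatment it was 17.0 and 16.4 CPM per kb. HSPA1A in A2780 was at 7.1 and 11.9 CPM per kb in controls and 9.4 and 5.42 after treatment. HSPB1 in A2780 was at 12.7 and 34.3 CPM per kb in controls and 29.3 and 36.0 after treatment. What moved the controls was not tested.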

How the results depend on the processing

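Most counts of called members stayed within 1.5 times of the reported count under the alternatives other than leaving out a library. The exceptions were the decreases in A2780 at 6 h (10), which were 16 with DESeq2 size factors in edgeR and 17 with DESeq2; the increases in A2780cis at 12 h (11), which were 20 with library size alone; the interaction at 6 h (3), which was 5 without the filter, 5 with the replicate block and 7 with DESeq2; and the untreated time comparison of A2780cis (39), which was 21 with only the samples compared, a fit with fewer samples. Pairing of samples by replicate number was not seen, and in 0 of 8 comparisons did every sample correlate best with its own number. With 3 libraries in a group this check cannot exclude pairing. The members' split with the replicate block was 9 up and 10 down (A2780, 6 h) and 16 and 35 (A2780, 12 h). In A2780cis it was 8 and 18 (6 h) and 12 and 33 (12 h). Leaving out each library in turn gave 10 to 14 up and 32 to 39 down in A2780 at 12 h, 6 to 7 up and 4 to 10 down in A2780 at 6 h, 9 to 12 up and 31 to 34 down in A2780cis at 12 h and 5 to 9 up and 12 to 17 down in A2780cis at 6 h. The same gave 29 to 34 (12 h) and 29 to 32 (6 h) between untreated lines, 15 to 23 and 2 to 4 for the interaction at 12 h and 6 h, 27 to 33 and 20 to 28 for the difference of 12 h and 6 h responses in A2780 and A2780cis, and 11 to 24 and 22 to 43 for untreated time in A2780 and A2780cis.

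Reversed signs came from values that were not called. With library size alone these were DNAJC1 (0.03), DNAJC4 (0.15) and DNAJC6 (0.10) in A2780 at 12 h, DNAJC5 (0.06), HSPD1 (0.07) and HSPE1 (0.03) in A2780cis at 12 h, and DNAJC25-GNG10 (0.08) in A2780cis at 6 h, which was 0.02 with only the samples compared. HSP90AB1 in A2780 at 6 h was -0.03 with DESeq2 size factors and with DESeq2. Leave-one-out values spanned 0 for the following: at 6 h HSP90AB1 (-0.03 to 0.07), HSPA1B (-0.09 to 0.19), DNAJB4 (-0.17 to 0.06) and HSPA2 (-0.82 to 1.28) in A2780 and CCT6B (-0.56 to 0.08) and HSPA12A (-0.07 to 0.12) in A2780cis. At 12 h they were DNAJC4 (-0.19 to 0.03), DNAJC6 (-1.72 to 1.66), DNAJC25-GNG10 (-0.08 to 0.19) and HSPB1 (-0.11 to 0.26) in A2780, and HSPD1 (-0.14 to 0.08), HSPE1 (-0.19 to 0.07), DNAJB2 (-0.21 to 0.01), DNAJC5 (-0.16 to 0.03), DNAJB9 (-0.08 to 0.22) and CCT8 (-0.23 to 0.01) in A2780cis. The cause of these changes was not tested. Depth limits members near the floor (DNAJC6, HSPA12A and HSPA2 in A2780, DNAJC15 and DNAJB13 in A2780cis); the floors cover counting error only, while the intervals rest on the spread between libraries.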
